A study of Mus musculus with 9 samples.

Results

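Chemokines, interleukins and their receptors were followed in BG2 cells, a line of mammary epithelial cells grown from an endpoint tumour of a mouse with the MMTV-NIC transgene. The members were the genes of the deposited count table whose symbol is that of a CC or CXC chemokine, of Cx3cl1, of an interleukin or a gene named after one (receptors, antagonists and binding proteins included), of Csf1, Csf2 or Csf3, of Lif or of Tnf. They numbered 128 of the 24594 genes in the table. RNA was compared between 2 Sox10 knockout clones and the wild-type bulk population, with 3 technical replicates in each of these 3 groups. All groups carry the transgene, in which the MMTV promoter drives the oncogene Neu and, through an internal ribosome entry site, Cre recombinase in mammary epithelium. The clones were expanded from a population edited by CRISPR with guides against exon 3 of the Sox10 coding sequence, and each of them is 1 clone, named here clone 2 and clone 1. The wild-type cells were not cloned, and their libraries bear the name NTC. The libraries of a group are technical replicates, so every p-value below measures the spread between libraries of the same cells and not between cultures, clones or animals.

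Chemokines are small secreted or membrane-bound proteins that guide leukocytes along gradients through G-protein-coupled receptors. Interleukins and the colony-stimulating factors act on cell-surface receptor chains, many of which are shared by several cytokines, and most of these receptors signal through JAK kinases and STAT factors, while the receptors of the IL-1 and IL-17 families feed into NF-kB. In mammary tumours these proteins are known for recruiting macrophages and neutrophils and for acting on the tumour cells themselves.

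Sox10 itself had 0, 2 and 2 counts in the libraries of clone 2, 0, 6 and 0 counts in clone 1 and 16660, 21437 and 26038 counts in wild-type cells. Libraries held 65805296 to 83282841 counts. Values are CPM, read counts scaled to a common library size with TMM factors, and a gene was called different where the adjusted p of edgeR's quasi-likelihood test was under 0.05. In all libraries 71.8 to 77.3% of values from 1 to 10 counts were even, against 49.3 to 51.4% of values from 201 to 1000 counts. Low counts thus mostly came in pairs, and the smallest independent unit was taken as a pair of counts. A group with no count is therefore set against a floor of 3 pairs, or 6 counts over its 3 libraries (0.0253 CPM in clone 2, 0.0283 CPM in clone 1 and 0.0268 CPM in wild-type cells), and intervals for low counts use pairs. Floors and intervals cover counting error only. Of 6 markers of mammary epithelium, all fell in both clones. Epcam was at 0 counts in clone 2, 0.0341 CPM in clone 1 and 659.5 CPM in wild-type cells, while Krt8 and Krt18 stayed at 443 CPM or more in every library of the clones. Markers of leukocytes were scarce, with Ptprc, which encodes CD45, at 0 counts in both clones and at 8 counts in all in wild-type cells, and with Tyrobp, C1qa, C1qb and C1qc at 0 counts in all 9 libraries. Summed over 8 leukocyte markers the level was 4.04 to 5.10 CPM in clone 2, 3.92 to 4.43 CPM in clone 1 and 0.111 to 0.324 CPM in wild-type cells, most of it in the clones from Lcp2. The sum of 8 macrophage markers was 43.5 to 46.0 CPM in clone 2, 9.61 to 11.3 CPM in clone 1 and 7.35 to 12.4 CPM in wild-type cells, mostly from Cd68. The sum of 8 fibroblast markers was 136 to 150.1 CPM in clone 2, 217 to 223 CPM in clone 1 and 30.3 to 35.9 CPM in wild-type cells, in the clones mostly from Pdgfra, with Lum and Thy1 at 0 counts throughout. The sum of 5 endothelial markers was 0.816 to 1.09 CPM in clone 2, 15.9 to 18.1 CPM in clone 1 and 0 to 0.108 CPM in wild-type cells. In clone 1 it came mostly from Kdr, with Pecam1, Cdh5 and Tek at means of 0.0270 CPM or less. Sums of T cell and B cell markers stayed at 0.270 CPM or less in every library. The part of these marker genes in the results below was not tested. In RNA from a bulk of cells, a smaller share of producing cells and less RNA per cell cannot be told apart.

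Cytokine and receptor transcripts were split between strong rises and strong falls. Of the 128 members, 67 passed the filter on low counts and were tested, 32 had counts but too few, and 29 had 0 counts in all 9 libraries. In clone 2, 31 members rose and 26 fell, 85.1% of those tested, against 74.4% of all 13928 genes (37.3% higher and 37.1% lower). In clone 1, 28 rose and 25 fell, 79.1% of those tested, against 76.5% of all genes (37.9% higher and 38.6% lower). Both clones moved alike for 44 members, 65.7% of those tested beside 58.1% of all genes. Of these, 23 were higher in both (34.3%, against 28.7% of all genes) and 21 lower in both (31.3%, against 29.4%). Calls of at least 2-fold were made for 50 members in clone 2 (74.6%, against 30.5% of all genes) and for 45 in clone 1 (67.2%, against 32.5%). A member that passed the filter only through the group in which it is high had to differ, so the share of large calls among tested members is a description. Both comparisons use the same wild-type libraries.

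**Figure D1:**
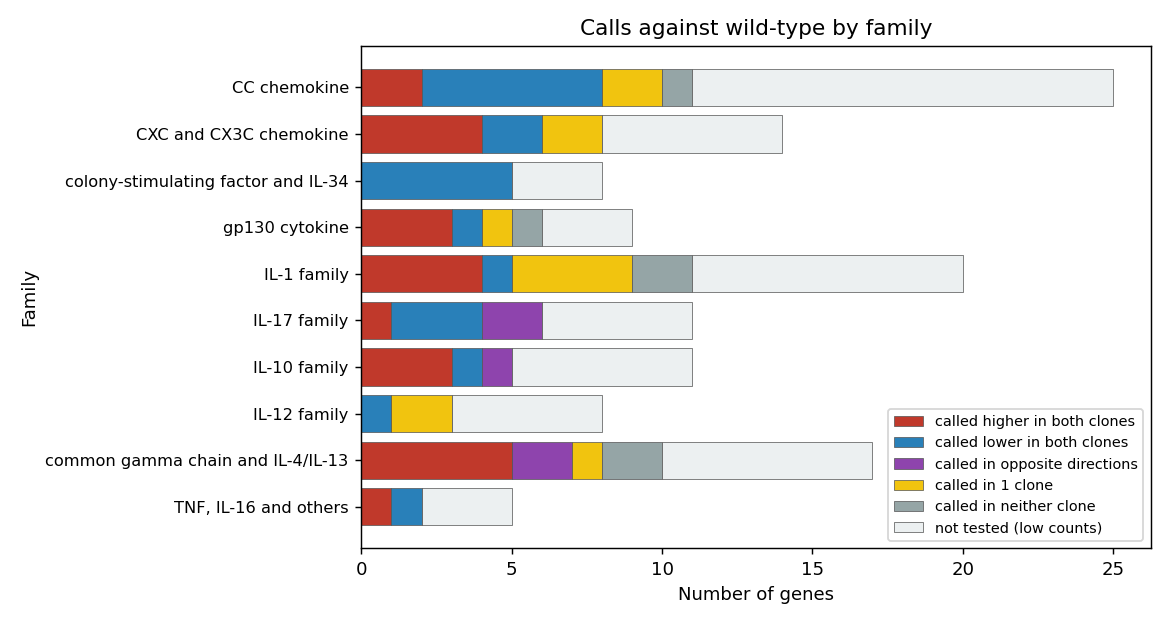
Number of members in each cytokine family (horizontal axis, genes) by their calls in the 2 clones against wild-type cells. All 5 tested genes of the colony-stimulating factor and IL-34 group were lower in both clones, beside 29.4% of all genes. Of 10 tested genes of the common gamma chain group, 5 were higher in both, beside 28.7% of all genes. In that group 2 genes were called in opposite directions and none was lower in both.

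Ligands and receptors were counted apart, beside 28.7% of all genes that were higher and 29.4% that were lower in both clones. Of 80 ligand genes, 41 were tested, and 11 rose and 17 fell in both clones, with a median log2 fold change of -0.74 in clone 2 and -0.15 in clone 1. Of 38 receptor genes, 24 were tested, and 11 rose and 4 fell in both, with medians of 0.78 and 0.42. The median over all genes tested was -0.00 in clone 2 and 0.00 in clone 1, and the difference between ligands and receptors was not tested. Across the chromosomes on which genes were tested, the median log2 fold change lay between -0.53 and 0.48 in clone 2 and between -0.49 and 0.61 in clone 1.

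Chemokines that attract neutrophils through the receptor CXCR2 lie in the same part of chromosome 5, and they did not move as 1 block. Cxcl1 and Cxcl2 rose in both clones, Cxcl5 rose in clone 1, and Cxcl3 fell in both. Cxcl1 (Entrez ID 14825; GRCm38, chromosome 5, 90891245 to 90893121) stood at 331, 299 and 307 CPM in clone 2, at 233, 237 and 228 CPM in clone 1 and at 107, 101 and 102 CPM in wild-type cells. All 6 libraries of the clones lay above all 3 wild-type libraries. Its log2 fold changes were 1.60 ± 0.05 (clone 2) and 1.17 ± 0.05 (clone 1) (adjusted p = 1.60e-10 and 2.02e-09). Cxcl2 (90903899 to 90905938) stood at 68.7, 61.1 and 64.4 CPM in clone 2, at 25.5, 26.1 and 25.5 CPM in clone 1 and at 14.9, 14.9 and 15.7 CPM in wild-type cells, again without overlap between the groups. The log2 fold changes of Cxcl2 were 2.09 ± 0.06 (clone 2) and 0.76 ± 0.06 (clone 1), and the clones differed by 1.33 ± 0.06 (clone 2 minus clone 1, adjusted p = 1.62e-08). Cxcl5 (90759298 to 90761625) stood at 86.8, 61.1 and 68.6 CPM in clone 2, at 207, 179 and 166 CPM in clone 1 and at 77.6, 62.1 and 61.7 CPM in wild-type cells. Clone 1 was above the rest, while clone 2 overlapped wild-type cells. The log2 fold changes of Cxcl5 were 0.11 ± 0.13 (clone 2) and 1.45 ± 0.13 (clone 1) (adjusted p = 0.485 and 1.48e-06), so that it was called in clone 1 alone, and the difference between the clones was -1.35 ± 0.13 (clone 2 minus clone 1, adjusted p = 7.38e-06). Cxcl3 (90786101 to 90788093) stood at 1.26, 0.463 and 0.856 CPM in clone 2, at 1.30, 1.59 and 1.45 CPM in clone 1 and at 5.89, 5.38 and 4.47 CPM in wild-type cells, with every library of the clones below every wild-type library. Its log2 fold changes were -2.60 ± 0.27 (clone 2) and -1.86 ± 0.26 (clone 1) (adjusted p = 4.44e-06 and 5.00e-05). The difference between the clones, -0.74 ± 0.28 (clone 2 minus clone 1, adjusted p = 0.0436), lost its call with library totals in place of TMM (-0.73, adjusted p = 0.0548), in a fit of the 2 clones alone (-0.76, adjusted p = 0.0580) and without wild-type replicate 2 or any 1 clone library other than clone 2 replicate 1. Of the runs of 75 bases in Cxcl2 transcripts, 4.6% also occur in another gene, Cxcl3, so reads can be split between these paralogs.

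The windows around the starts of Cxcl1, Cxcl2 and Cxcl3 are shown because these genes share a motif and yet moved in different directions. The windows of Il6, which was at 0 counts in wild-type cells, and of Ccl20, which fell, are shown with them. Each window runs from 250 bases before the start to 50 bases after it, on the plus strand, from RefSeq (GRCm38.p6): chr5:90890995-90891294 for Cxcl1, chr5:90903649-90903948 for Cxcl2, chr5:90785851-90786150 for Cxcl3, chr5:30012864-30013163 for Il6 and chr1:83116516-83116815 for Ccl20. Capitals mark matches to the NF-kB consensus on either strand.
Cxcl1: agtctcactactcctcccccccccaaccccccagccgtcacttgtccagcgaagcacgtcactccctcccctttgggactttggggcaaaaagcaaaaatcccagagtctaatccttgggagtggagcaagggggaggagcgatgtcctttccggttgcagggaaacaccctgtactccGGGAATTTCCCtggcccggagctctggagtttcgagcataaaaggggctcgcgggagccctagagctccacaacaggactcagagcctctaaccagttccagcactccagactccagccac
Cxcl2: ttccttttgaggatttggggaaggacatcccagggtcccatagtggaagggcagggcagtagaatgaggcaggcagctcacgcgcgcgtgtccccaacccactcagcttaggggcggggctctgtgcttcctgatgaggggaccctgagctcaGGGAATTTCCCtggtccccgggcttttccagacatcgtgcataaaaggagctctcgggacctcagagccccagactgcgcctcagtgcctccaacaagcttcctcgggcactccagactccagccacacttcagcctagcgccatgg
Cxcl3: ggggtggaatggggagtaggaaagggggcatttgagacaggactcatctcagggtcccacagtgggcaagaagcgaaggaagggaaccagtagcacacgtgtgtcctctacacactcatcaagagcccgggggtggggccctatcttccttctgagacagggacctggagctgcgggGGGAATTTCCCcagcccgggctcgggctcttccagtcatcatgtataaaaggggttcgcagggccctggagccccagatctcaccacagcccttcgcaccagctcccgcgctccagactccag
Il6: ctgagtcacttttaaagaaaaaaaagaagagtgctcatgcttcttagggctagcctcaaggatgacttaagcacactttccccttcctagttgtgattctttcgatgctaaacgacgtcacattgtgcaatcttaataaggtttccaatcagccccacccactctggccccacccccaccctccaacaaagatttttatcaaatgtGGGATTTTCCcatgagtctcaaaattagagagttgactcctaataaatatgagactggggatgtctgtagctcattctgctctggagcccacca
Ccl20: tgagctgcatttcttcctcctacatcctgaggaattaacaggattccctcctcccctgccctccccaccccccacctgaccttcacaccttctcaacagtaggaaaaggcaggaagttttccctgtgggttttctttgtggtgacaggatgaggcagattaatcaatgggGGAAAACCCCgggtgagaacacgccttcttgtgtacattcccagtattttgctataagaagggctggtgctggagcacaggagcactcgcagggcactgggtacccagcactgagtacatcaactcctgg

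All 5 windows held a match to the NF-kB consensus. The match began 71 bases before the start in Cxcl1, 97 bases before it in Cxcl2, 73 bases before it in Cxcl3, 44 bases before it in Il6 and 80 bases before it in Ccl20. In the 3 Cxcl windows the same letters, GGGAATTTCC, were found, which match on both strands with a shift of 1 base. Such a match was present in 4.5% of all 32851 windows in the table and in 12.6% of the 119 windows of 98 members. It was present in 28.0% of 25 windows of members higher in both clones and in 22.7% of 22 windows of members lower in both. Some genes have several windows, and these windows belong to 18 of the 23 members higher in both and 15 of the 21 lower in both. Ccl2, Ccl7, Cxcl5 and Cxcl16 have no window. The C/EBP motif TTNNGNAA was found in the windows of Il6 and Cxcl2 and in 40.7% of all windows, and the AP-1 motif TGANTCA in that of Il6 and in 7.8% of all windows. The short SOX motif ACAANG was found in the windows of Il6 (at 130 and 65 bases before the start) and Ccl20, in 41.2% of all windows, in 52.0% of those of members higher in both clones and in 9.1% of those of members lower in both. By gene, these were 10 of 18 members higher in both and 2 of 15 lower in both, beside 12145 of all 27025 genes with a window. The difference was not tested. Both strands were searched, and in Il6 the C/EBP match overlapped a SOX match. A match is a stretch of letters and not a shown binding site.

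**Figure D2:**
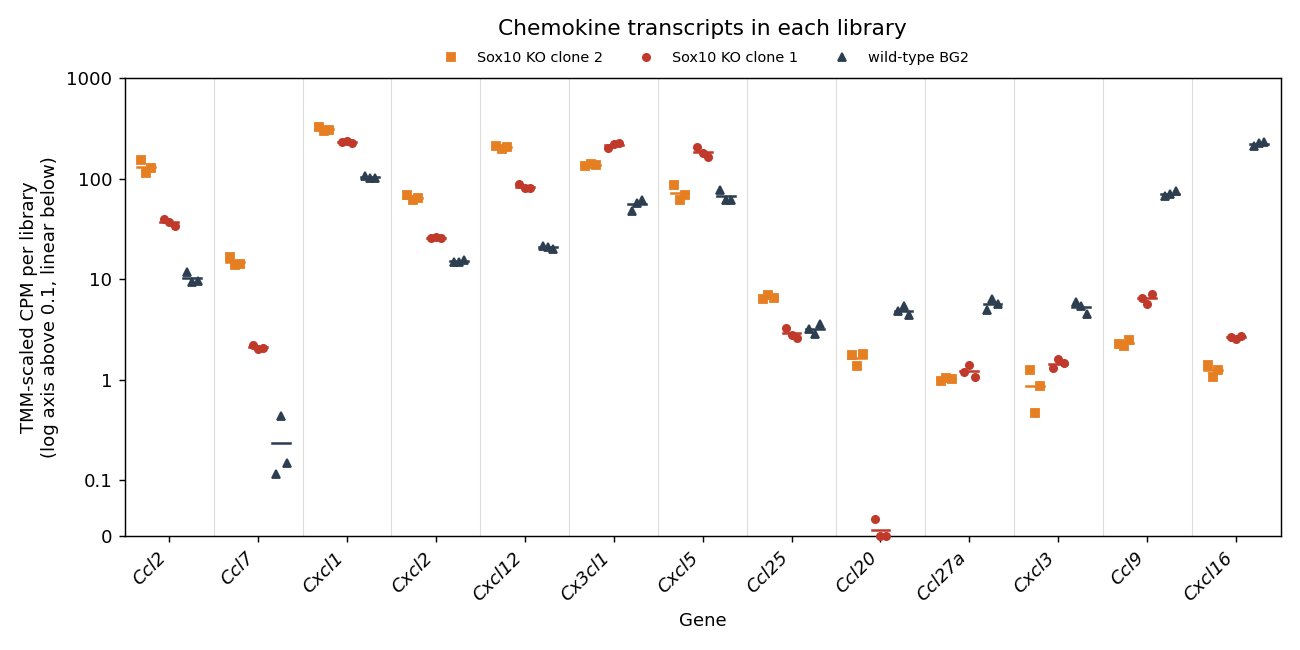
TMM-scaled CPM of 13 chemokine genes (horizontal axis) in each of the 9 libraries, on a vertical axis that is logarithmic above 0.1 CPM and linear below, with short lines at the group means. Ccl2 averaged 132 CPM in clone 2, 36.9 CPM in clone 1 and 10.3 CPM in wild-type cells, while Cxcl16 lay at 2.74 CPM or less in the clones and at 211 CPM or more in wild-type cells.

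The monocyte attractants Ccl2 and Ccl7, neighbours on chromosome 11 (82035577 to 82037452 and 82045712 to 82047525), were higher in both clones and higher in clone 2 than in clone 1. Ccl2, which acts through the receptor CCR2, stood at 154, 114 and 128 CPM in clone 2, at 39.7, 36.9 and 34.1 CPM in clone 1 and at 11.8, 9.29 and 9.64 CPM in wild-type cells. None of the 3 groups overlapped another. The log2 fold changes of Ccl2 were 3.69 ± 0.13 (clone 2) and 1.85 ± 0.12 (clone 1) (adjusted p = 3.05e-10 and 7.87e-08), and the clones differed by 1.84 ± 0.12 (clone 2 minus clone 1, adjusted p = 2.33e-07). Ccl7, a close relative of Ccl2, stood at 16.5, 14.0 and 14.3 CPM in clone 2, at 2.24, 2.03 and 2.08 CPM in clone 1 and at 0.116, 0.433 and 0.148 CPM in wild-type cells. It was nearly silent in wild-type cells, with log2 fold changes of 6.0 ± 0.28 (clone 2) and 3.18 ± 0.30 (clone 1) (adjusted p = 4.22e-09 and 1.92e-06) and a difference between the clones of 2.82 ± 0.22 (clone 2 minus clone 1, adjusted p = 9.91e-07). Leaving out wild-type replicate 2 moved its fold changes to 6.79 (clone 2) and 3.97 (clone 1). Further along the same chromosome, Ccl9, a mouse ligand of CCR1 (83572917 to 83578636), went the other way. It stood at 2.29, 2.18 and 2.49 CPM in clone 2, at 6.57, 5.63 and 7.15 CPM in clone 1 and at 68.1, 70.3 and 76.0 CPM in wild-type cells. Every clone library was far below the wild-type libraries, and the log2 fold changes were -4.94 ± 0.10 (clone 2) and -3.47 ± 0.10 (clone 1) (adjusted p = 5.33e-12 and 4.07e-11). Its neighbour Ccl6, another CCR1 ligand, was scarce throughout, at 0.547 ± 0.133 CPM in wild-type cells, and fell in both clones. The median log2 fold change of the 1151 genes tested on chromosome 11 was -0.00 in clone 2 and 0.03 in clone 1.

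Of the membrane-bound chemokines, Cxcl16 fell and Cx3cl1 rose, and the homeostatic chemokine Cxcl12 rose. Cxcl16, a transmembrane chemokine whose receptor is CXCR6, stood at 1.39, 1.07 and 1.26 CPM in clone 2, at 2.67, 2.55 and 2.74 CPM in clone 1 and at 211, 227 and 230.4 CPM in wild-type cells. The clones lay far below wild-type cells and did not overlap each other. Its log2 fold changes were -7.48 ± 0.09 (clone 2) and -6.39 ± 0.08 (clone 1) (adjusted p = 1.96e-13 and 2.40e-13), the largest fall among members with more than 9 counts in every group. The exons of Zmynd15 on the opposite strand cover 18.3% of the exon bases of Cxcl16 in GENCODE M21, and no source used here gives the strand setting of the counting. Cx3cl1, fractalkine, the other membrane-anchored chemokine, rose. It stood at 135, 140.3 and 138 CPM in clone 2, at 203, 224 and 228 CPM in clone 1 and at 48.4, 57.2 and 61.1 CPM in wild-type cells, with log2 fold changes of 1.31 ± 0.08 (clone 2) and 1.98 ± 0.08 (clone 1) (adjusted p = 3.72e-08 and 1.15e-09). Cxcl12, the ligand of CXCR4 and of the scavenging receptor ACKR3, stood at 212, 199.9 and 209 CPM in clone 2, at 89.2, 81.4 and 80.2 CPM in clone 1 and at 21.6, 20.8 and 19.8 CPM in wild-type cells. Against wild-type cells the log2 fold changes were 3.32 ± 0.06 (clone 2) and 2.01 ± 0.06 (clone 1), and clone 2 exceeded clone 1 by a log2 difference of 1.31 ± 0.06 (clone 2 minus clone 1, adjusted p = 1.19e-08).

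Among CC chemokines of epithelial barriers, Ccl20 and Ccl27a fell, while Ccl25 rose in clone 2 alone. Ccl20, which attracts cells bearing CCR6, averaged 1.64 ± 0.240 CPM in clone 2, 0.0101 ± 0.0175 CPM in clone 1 and 4.88 ± 0.485 CPM in wild-type cells (SD, n = 3 each here and below). Clone 1 held 2 counts of Ccl20 in all, both in replicate 1, 515-fold fewer than wild-type cells (95% counting interval 92.1 to 20393). In clone 2 the log2 fold change was -1.57 ± 0.20 (adjusted p = 2.25e-05). Ccl27a, a ligand of CCR10, stood at 0.972, 1.05 and 1.02 CPM in clone 2, at 1.18, 1.4 and 1.07 CPM in clone 1 and at 4.94, 6.42 and 5.72 CPM in wild-type cells, with log2 fold changes of -2.49 ± 0.16 (clone 2) and -2.22 ± 0.16 (clone 1) (adjusted p = 5.40e-08 and 1.32e-07). Of its runs of 75 bases, 33.3% also occur in other genes, among them Ccl27b, so its level is uncertain. Ccl25, the ligand of CCR9, stood at 6.31, 6.94 and 6.53 CPM in clone 2, at 3.26, 2.79 and 2.61 CPM in clone 1 and at 3.18, 2.84 and 3.60 CPM in wild-type cells. Clone 2 lay above both other groups, with log2 fold changes of 1.04 ± 0.13 (clone 2) and -0.15 ± 0.13 (clone 1) (adjusted p = 1.81e-05 and 0.312). The other tested CC and CXC chemokines stayed under 1 CPM in every group. Named after their values were seen, as are the other members under 1 CPM below, Ccl27b and Ccl28 fell in both clones (98.0% of the runs of 75 bases in Ccl27b also occur in other genes, so its level is uncertain), Ccl17 was called higher in clone 1 alone, Cxcl10 was called lower in clone 2 alone, and Ccl5 was called in neither.

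Growth factors of macrophages and neutrophils were lower in both clones, every one of the 4 tested, beside 29.4% of all genes. Csf1 encodes the main growth factor of macrophages and was one of the most abundant members, at 437 ± 7.49 CPM in clone 2, 309 ± 10.9 CPM in clone 1 and 575 ± 13.0 CPM in wild-type cells. Its log2 fold changes were modest, -0.40 ± 0.04 (clone 2) and -0.90 ± 0.04 (clone 1) (adjusted p = 8.06e-06 and 6.72e-09). Il34, the second ligand of the CSF1 receptor, stood at 16.9, 19.0 and 19.7 CPM in clone 2, at 36.3, 41.5 and 37.8 CPM in clone 1 and at 60.3, 67.2 and 71.2 CPM in wild-type cells. The groups did not overlap, and the log2 fold changes were -1.84 ± 0.08 (clone 2) and -0.78 ± 0.08 (clone 1) (adjusted p = 3.54e-09 and 4.52e-06). Csf3, which drives the production of neutrophils, stood at 22.8, 21.6 and 20.9 CPM in clone 2, at 12.7, 15.0 and 12.9 CPM in clone 1 and at 75.5, 73.5 and 73.2 CPM in wild-type cells. It fell with log2 fold changes of -1.76 ± 0.07 (clone 2) and -2.45 ± 0.07 (clone 1) (adjusted p = 1.16e-09 and 9.18e-11). Csf2, which acts on several myeloid lineages, was scarce and averaged 0.278 ± 0.0198 CPM in clone 2, 0.0891 ± 0.112 CPM in clone 1 and 0.690 ± 0.111 CPM in wild-type cells. It fell with log2 fold changes of -1.30 ± 0.51 (clone 2) and -2.92 ± 0.61 (clone 1) (adjusted p = 0.0370 and 0.00103). Among the receptors of this group, Il3ra, the IL-3 binding chain, stood at 0 counts in all 3 libraries of clone 2, at 0 counts in all 3 libraries of clone 1 and at 1.37, 0.892 and 1.35 CPM in wild-type cells. It was lower by at least 47.6-fold (clone 2) and at least 42.6-fold (clone 1). Il3 and Il5ra had 0 counts in all libraries, and Il5 had at most 4 in a library.

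**Figure D3:**
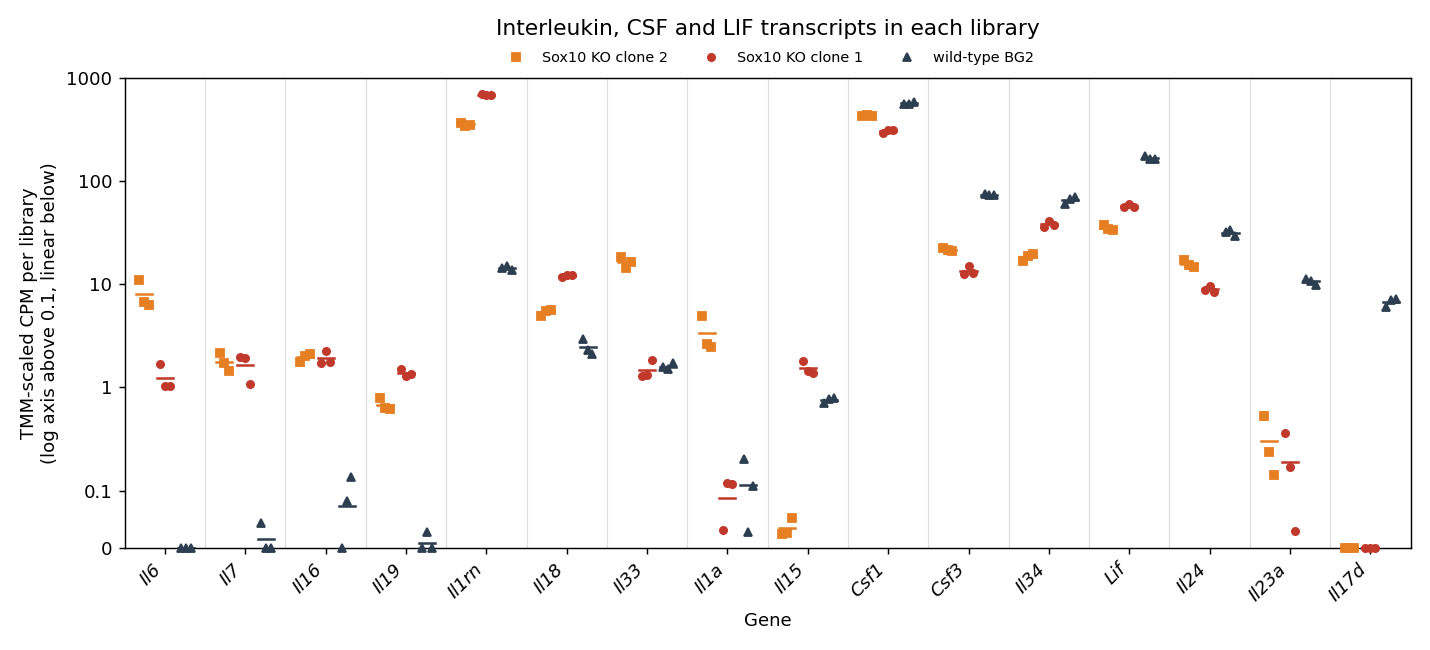
TMM-scaled CPM of 16 interleukin, colony-stimulating factor and Lif genes (horizontal axis) in each library, with short lines at group means; the vertical axis is logarithmic above 0.1 CPM and linear below. Il6 and Il17d are mirror images: Il6 has 0 counts in the 3 wild-type libraries, and Il17d has 0 counts in the 6 clone libraries.

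In the family that signals through gp130, the transcripts of IL-6 and of both chains of its receptor rose while that of Lif fell. Il6 (chromosome 5, 30013114 to 30019975) stood at 11, 6.80 and 6.37 CPM in clone 2, at 1.68, 1.04 and 1.03 CPM in clone 1 and at 0 counts in all 3 libraries of wild-type cells. Replicate 1 was the highest library in each clone. Relative to the floor, Il6 was at least 304-fold higher in clone 2 and at least 46.2-fold higher in clone 1, and the clones differed by a log2 fold change of 2.70 ± 0.28 (clone 2 minus clone 1, adjusted p = 3.34e-05). Il6ra, the IL-6 binding chain, stood at 72.6, 75.6 and 73.6 CPM in clone 2, at 149.6, 147 and 149 CPM in clone 1 and at 24.6, 24.6 and 22.7 CPM in wild-type cells, with log2 fold changes of 1.62 ± 0.05 (clone 2) and 2.63 ± 0.05 (clone 1) (adjusted p = 1.04e-10 and 3.05e-12). Il6st, which encodes gp130, the shared signalling chain, stood at 236, 239.8 and 244 CPM in clone 2, at 428, 438 and 447 CPM in clone 1 and at 131, 133 and 139 CPM in wild-type cells. For Il6st the log2 fold changes were 0.84 ± 0.04 (clone 2) and 1.70 ± 0.04 (clone 1) (adjusted p = 9.10e-09 and 2.44e-11). Both receptor chains were higher in clone 1 than in clone 2, whereas Il6 was higher in clone 2. Lif, which signals through the LIF receptor and gp130, stood at 37.5, 34.4 and 33.7 CPM in clone 2, at 56.2, 60.3 and 56.1 CPM in clone 1 and at 176, 165 and 164 CPM in wild-type cells. The groups did not overlap, and its log2 fold changes were -2.26 ± 0.06 (clone 2) and -1.55 ± 0.06 (clone 1) (adjusted p = 3.17e-11 and 5.84e-10). Il11 was scarce, at 0.170 ± 0.0628 CPM in clone 2, 0.256 ± 0.0326 CPM in clone 1 and 0.290 ± 0.0309 CPM in wild-type cells, and was called in neither clone. Il11ra1, its receptor, averaged 18.5 ± 0.816 CPM in clone 2, 14.2 ± 0.164 CPM in clone 1 and 16.6 ± 1.59 CPM in wild-type cells. Its small log2 fold change of -0.22 ± 0.08 in clone 1 (adjusted p = 0.0282) was lost without wild-type replicate 2 or 3 or without any 1 library of clone 1, and 35.9% of its runs of 75 bases also occur in other genes. Il11ra1 was also called higher in clone 2 with the replicate number as a block (0.16, adjusted p = 0.0396) and without wild-type replicate 3 (0.22, adjusted p = 0.0341).

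Of 13 receptors for CSF, LIF and TNF and related chains, 12 were tested, with 7 higher and 5 lower in clone 2 and 6 higher and 5 lower in clone 1, beside the 74.4% and 76.5% of all genes called in these comparisons. Osmr, the oncostatin M receptor chain that pairs with gp130, averaged 172 ± 9.70 CPM in clone 2, 213 ± 5.06 CPM in clone 1 and 7.07 ± 0.809 CPM in wild-type cells, with log2 fold changes of 4.61 ± 0.08 (clone 2) and 4.91 ± 0.08 (clone 1) (adjusted p = 1.82e-12 and 1.21e-12). Csf2ra, the chain that binds the product of Csf2, had 0 counts in both clones and 8.45 ± 0.727 CPM in wild-type cells, lower by at least 335-fold (clone 2) and at least 299.6-fold (clone 1). Cntfr, the receptor of ciliary neurotrophic factor, had 0 counts in clone 2, 2 counts in clone 1 and 1335 counts in wild-type cells, at least 235-fold lower in clone 2 and, in clone 1, 631-fold lower (95% counting interval 113 to 24968). Of 25 JAK, STAT and SOCS genes and phosphatases, 24 were tested, with 14 higher and 10 lower in clone 2 (37.3% and 37.1% of all genes) and 16 higher and 6 lower in clone 1 (37.9% and 38.6% of all genes). Socs3, a feedback inhibitor of gp130 signalling, averaged 59.9 ± 3.77 CPM in clone 2, 127 ± 5.87 CPM in clone 1 and 24.3 ± 1.25 CPM in wild-type cells, with log2 fold changes of 1.30 ± 0.06 (clone 2) and 2.39 ± 0.07 (clone 1). Cish, a feedback inhibitor induced by STAT5, averaged 0.638 ± 0.0756 CPM in clone 2, 0.770 ± 0.0339 CPM in clone 1 and 8.05 ± 0.678 CPM in wild-type cells, with log2 fold changes of -3.66 ± 0.14 (clone 2) and -3.38 ± 0.14 (clone 1).

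In the clones, though not in wild-type cells, the antagonist gene Il1rn had the highest CPM of the IL-1 family. Il1rn encodes the secreted and intracellular forms of the IL-1 receptor antagonist, and it stood at 373, 348 and 356 CPM in clone 2, at 702, 689 and 691 CPM in clone 1 and at 14.4, 15.2 and 13.7 CPM in wild-type cells. All clone libraries lay far above the wild-type libraries. The log2 fold changes of Il1rn were 4.64 ± 0.06 (clone 2) and 5.59 ± 0.06 (clone 1) (adjusted p = 2.21e-13 and 8.52e-14), a 24.9-fold and a 48.2-fold rise. The agonists were far scarcer. Il1b had 0 counts in both clones and 1 count in wild-type cells. Il1a averaged 3.34 ± 1.38 CPM in clone 2, 0.0877 ± 0.0497 CPM in clone 1 and 0.113 ± 0.0876 CPM in wild-type cells and rose in clone 2 alone, with log2 fold changes of 4.88 ± 0.48 (clone 2) and -0.32 ± 0.75 (clone 1) (adjusted p = 2.80e-06 and 0.711). In clone 2 the value was 5.50 without wild-type replicate 1. Il33, an alarmin stored in the nucleus, stood at 18.3, 14.4 and 16.6 CPM in clone 2, at 1.29, 1.31 and 1.83 CPM in clone 1 and at 1.57, 1.5 and 1.72 CPM in wild-type cells. Clone 2 was above both other groups, which overlapped each other. The log2 fold changes of Il33 were 3.36 ± 0.15 (clone 2) and -0.11 ± 0.16 (clone 1) (adjusted p = 3.10e-09 and 0.544). Il18, which is activated by caspase-1, stood at 4.94, 5.57 and 5.67 CPM in clone 2, at 11.9, 12.3 and 12.4 CPM in clone 1 and at 2.95, 2.31 and 2.11 CPM in wild-type cells, with log2 fold changes of 1.14 ± 0.13 (clone 2) and 2.32 ± 0.13 (clone 1) (adjusted p = 8.56e-06 and 1.66e-08). Il18bp, which encodes the protein that neutralises IL-18, averaged 1.68 ± 0.427 CPM in clone 2, 1.95 ± 0.122 CPM in clone 1 and 1.71 ± 0.235 CPM in wild-type cells and was called in neither clone. Il1f6, which encodes an IL-36 cytokine, was called lower in clone 1 alone, with group means of 0.270 CPM or less.

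Among IL-1 family receptors, Il1rl1, the receptor of IL-33, rose in both clones at a low level, with 1.05 ± 0.258 CPM in clone 2, 1.0 ± 0.103 CPM in clone 1 and 0.0353 ± 0.0416 CPM in wild-type cells. Wild-type cells held 8 counts of it in all, 6 of them in replicate 2, so that it was 29.7-fold (95% counting interval 11.3 to 111) higher in clone 2 and 28.2-fold (95% counting interval 10.7 to 105) higher in clone 1. Il1r1, the signalling IL-1 receptor, rose but was nearly absent, at 0.102 CPM in clone 2, 0.227 CPM in clone 1 and 0.00824 CPM in wild-type cells. Il1rap, the accessory chain shared by several IL-1 family receptors, was abundant at 59.2 ± 10.5 CPM in clone 2, 40.1 ± 5.68 CPM in clone 1 and 42.5 ± 6.02 CPM in wild-type cells, and was called in clone 2 alone, with log2 fold changes of 0.48 ± 0.14 (clone 2) and -0.09 ± 0.14 (clone 1) (adjusted p = 0.00943 and 0.595). The IL-18 receptor chains changed little. Il18r1 fell with log2 fold changes of -0.31 ± 0.09 (clone 2) and -0.38 ± 0.09 (clone 1) (adjusted p = 0.00792 and 0.00216), and Il18rap had -0.06 ± 0.08 (clone 2) and 0.15 ± 0.08 (clone 1) and was called in neither clone. With the replicate number as a block Il18rap was called in clone 1 (0.16, adjusted p = 0.0402). It was also called there without replicate 1 of every group (0.24, adjusted p = 0.00872) and without wild-type replicate 1 (0.19, adjusted p = 0.0477). Downstream of these receptors, 22 of 23 listed adaptors and regulators were tested, with 13 higher and 7 lower in clone 2 and 12 higher and 7 lower in clone 1, where 74.4% and 76.5% of all genes were called. Casp1, which processes IL-18 and IL-1β, averaged 117 ± 13.7 CPM in clone 2, 229 ± 20.1 CPM in clone 1 and 19.2 ± 2.54 CPM in wild-type cells, with log2 fold changes of 2.61 ± 0.11 (clone 2) and 3.58 ± 0.12 (clone 1). Sigirr, an inhibitory receptor of this family, averaged 0.414 ± 0.128 CPM in clone 2, 0.200 ± 0.0853 CPM in clone 1 and 25.7 ± 2.75 CPM in wild-type cells, with log2 fold changes of -5.95 ± 0.21 (clone 2) and -6.98 ± 0.23 (clone 1). Irak3, an inhibitory kinase relative, averaged 11.2 ± 0.567 CPM in clone 2, had 0 counts in clone 1 and averaged 0.178 ± 0.103 CPM in wild-type cells. Casp4, an inflammatory caspase, had log2 fold changes of 2.62 ± 0.18 (clone 2) and 3.08 ± 0.18 (clone 1).

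Of the 5 receptors of the IL-17 family, all tested, Il17ra and Il17rd fell in both clones, Il17rc rose in both, and Il17rb and Il17re were called in opposite directions. Il17ra, the chain common to the IL-17 receptors, stood at 12.9, 12.1 and 12.7 CPM in clone 2, at 6.48, 5.58 and 5.40 CPM in clone 1 and at 44.2, 49.1 and 47.7 CPM in wild-type cells, and fell with log2 fold changes of -1.90 ± 0.08 (clone 2) and -3.02 ± 0.09 (clone 1) (adjusted p = 1.58e-09 and 5.37e-11). Il17rc, which pairs with Il17ra to bind IL-17A and IL-17F, stood at 212, 229 and 228 CPM in clone 2, at 204, 224 and 217 CPM in clone 1 and at 59.6, 64.5 and 72.1 CPM in wild-type cells. It rose by nearly the same amount in both clones, with log2 fold changes of 1.77 ± 0.07 (clone 2) and 1.72 ± 0.07 (clone 1) (adjusted p = 1.03e-09 and 1.24e-09) and a difference between the clones of 0.05 ± 0.07 (clone 2 minus clone 1, adjusted p = 0.548). Il17re, the IL-17C receptor chain next to Il17rc on chromosome 6, averaged 88.4 ± 3.90 CPM in clone 2, 45 ± 2.19 CPM in clone 1 and 53.4 ± 5.58 CPM in wild-type cells. It was called in opposite directions, with log2 fold changes of 0.73 ± 0.08 (clone 2) and -0.25 ± 0.08 (clone 1) (adjusted p = 4.45e-06 and 0.0122). Leaving out wild-type replicate 3 ended the call in clone 1 (-0.18, adjusted p = 0.0511). Il17rb, the chain that binds IL-25, stood at 0.192, 0.0265 and 0.0894 CPM in clone 2, at 16.8, 16.1 and 15.0 CPM in clone 1 and at 0.376, 0.419 and 0.507 CPM in wild-type cells. Clone 1 alone expressed it at more than a trace, and the log2 fold changes were -2.04 ± 0.38 (clone 2) and 5.19 ± 0.23 (clone 1) (adjusted p = 0.000521 and 2.76e-09). Without clone 2 replicate 1 the value for clone 2 was -2.86. Il17rd, known also as an inhibitor of fibroblast growth factor signalling, stood at 1.22, 1.73 and 1.42 CPM in clone 2, at 0, 0 and 0.0573 CPM in clone 1 and at 7.94, 6.81 and 7.56 CPM in wild-type cells. It was 394-fold lower in clone 1 (4 counts, all in replicate 3, 95% counting interval 109 to 3258) and had a log2 fold change of -2.35 ± 0.22 in clone 2 (adjusted p = 1.95e-06). Of 6 ligand genes only Il17d was tested. It stood at 0 counts in all 3 libraries of clone 2, at 0 counts in all 3 libraries of clone 1 and at 6.04, 7.06 and 7.17 CPM in wild-type cells, lower by at least 268-fold (clone 2) and at least 239.6-fold (clone 1). Il17a and Il25 had 0 counts in all libraries, and Il17f had 2 counts in clone 2, 0 in clone 1 and 24 in wild-type cells.

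**Figure D4:**
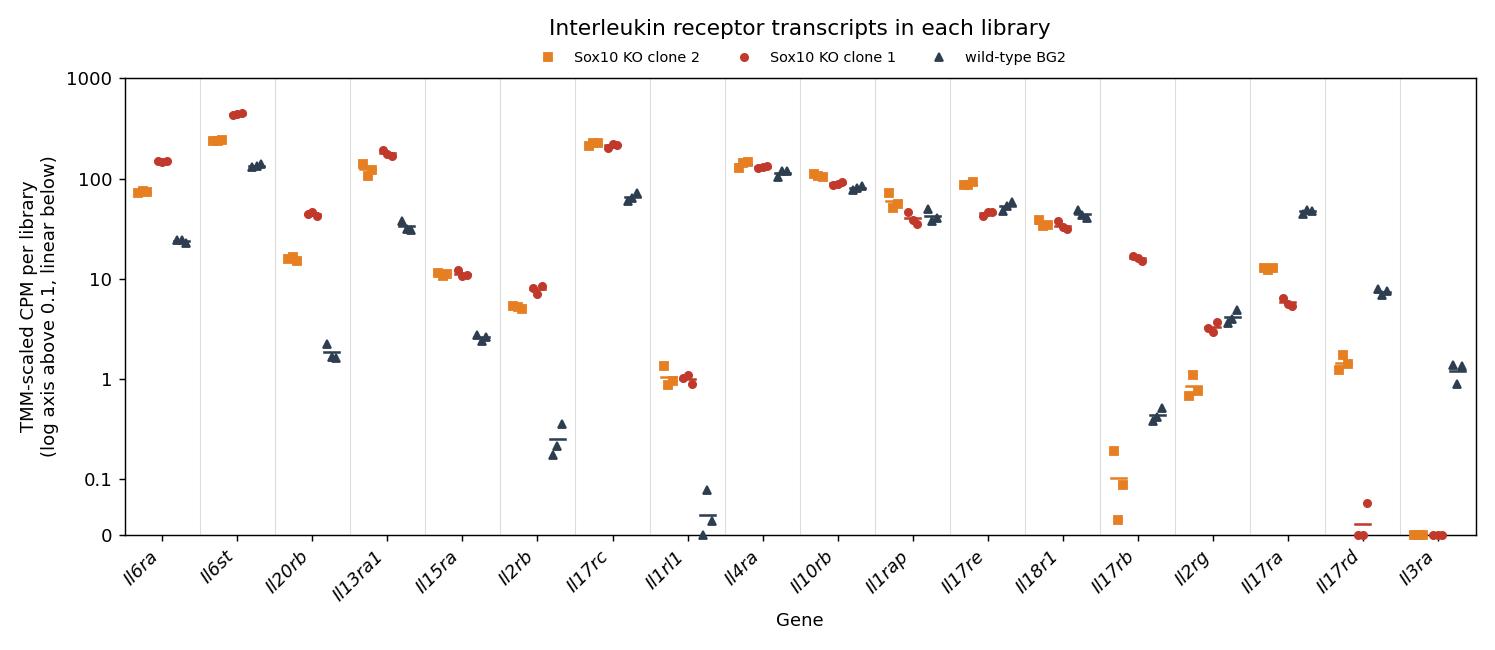
TMM-scaled CPM of 18 interleukin receptor genes (horizontal axis) in each library, with short lines at group means; the vertical axis is logarithmic above 0.1 CPM and linear below. Il6st and Il17rc are the most abundant of these genes in both clones, and Il17rb exceeds 1 CPM only in the 3 libraries of clone 1.

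In the IL-10 and IL-12 families, the receptor chain Il20rb rose while the ligands Il24 and Il23a fell. Il20rb, the chain shared by the receptors of IL-19, IL-20 and IL-24, stood at 15.7, 16.6 and 15.0 CPM in clone 2, at 44.0, 46.5 and 42.7 CPM in clone 1 and at 2.22, 1.66 and 1.63 CPM in wild-type cells. It rose with log2 fold changes of 3.10 ± 0.11 (clone 2) and 4.6 ± 0.11 (clone 1) (adjusted p = 3.97e-10 and 1.87e-11). Its usual partner Il20ra had 0 counts in all 9 libraries, and the alternative partner Il22ra1 reached 0.310 CPM in clone 2, had 0 counts in clone 1 and stood at 0.0314 CPM in wild-type cells. Among the ligands, Il24 stood at 17.3, 15.5 and 14.8 CPM in clone 2, at 8.87, 9.71 and 8.40 CPM in clone 1 and at 32.0, 33.7 and 29.7 CPM in wild-type cells, and it fell with log2 fold changes of -1.0 ± 0.09 (clone 2) and -1.82 ± 0.09 (clone 1) (adjusted p = 7.99e-07 and 5.48e-09). Il19 rose, with 0.680 ± 0.0976 CPM in clone 2, 1.39 ± 0.118 CPM in clone 1 and 0.00901 ± 0.0156 CPM in wild-type cells. Wild-type cells held 2 counts of Il19, both in replicate 2, 76.6-fold (95% counting interval 13.4 to 3060.4) fewer than clone 2 and 155-fold (95% counting interval 27.4 to 6160.4) fewer than clone 1. Il10rb, which serves IL-10, IL-22 and type III interferon, averaged 107 ± 4.03 CPM in clone 2, 89.4 ± 2.77 CPM in clone 1 and 80.2 ± 4.16 CPM in wild-type cells, with log2 fold changes of 0.42 ± 0.05 (clone 2) and 0.16 ± 0.05 (clone 1). Without wild-type replicate 1 or 2 it was no longer called in clone 1, nor was it without clone 1 replicate 3. In GENCODE M21, 14.9% of the exon bases of Il10rb are shared with the overlapping gene Gm21970 on the same strand. Of its runs of 75 bases, 12.9% also occur in that gene. Il23a, the p19 subunit of IL-23, stood at 0.528, 0.238 and 0.140 CPM in clone 2, at 0.364, 0.171 and 0.0287 CPM in clone 1 and at 11.4, 10.9 and 9.84 CPM in wild-type cells. Its log2 fold changes were -5.12 ± 0.41 (clone 2) and -5.84 ± 0.45 (clone 1) (adjusted p = 4.63e-07 and 2.99e-07). They became -5.81 without clone 2 replicate 1 and -6.68 without clone 1 replicate 1. Its partner subunit gene Il12b had at most 4 counts in a library, and Il12a had none. Il23r and Il27ra were called higher in clone 2 alone and their group means stayed at 0.675 CPM or less.

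Of 9 receptor genes for the common gamma chain cytokines and for IL-4 and IL-13, 5 were tested and 4 of these were higher in both clones, beside 28.7% of all genes. Il13ra1, which with Il4ra forms the receptor for both IL-4 and IL-13, stood at 141, 107 and 122 CPM in clone 2, at 193, 176 and 167 CPM in clone 1 and at 37.9, 31.7 and 30.8 CPM in wild-type cells, with log2 fold changes of 1.88 ± 0.11 (clone 2) and 2.42 ± 0.11 (clone 1) (adjusted p = 2.75e-08 and 3.39e-09). Il4ra was abundant, at 139 ± 9.23 CPM in clone 2, 131 ± 3.81 CPM in clone 1 and 114 ± 8.12 CPM in wild-type cells, and rose slightly, with log2 fold changes of 0.29 ± 0.06 (clone 2) and 0.21 ± 0.06 (clone 1) (adjusted p = 0.00183 and 0.0131). In clone 1 this call was lost without wild-type replicate 1 (0.14, adjusted p = 0.0686). Il15ra, which presents IL-15 to neighbouring cells, stood at 11.4, 10.7 and 11.2 CPM in clone 2, at 12.1, 10.6 and 10.8 CPM in clone 1 and at 2.77, 2.41 and 2.60 CPM in wild-type cells. The 2 clones overlapped each other and lay above wild-type cells, with log2 fold changes of 2.10 ± 0.10 (clone 2) and 2.11 ± 0.10 (clone 1) (adjusted p = 4.24e-09 and 3.98e-09). Il2rb, the beta chain for IL-2 and IL-15, stood at 5.33, 5.27 and 5.02 CPM in clone 2, at 8.07, 7.03 and 8.50 CPM in clone 1 and at 0.173, 0.216 and 0.358 CPM in wild-type cells, with log2 fold changes of 4.35 ± 0.20 (clone 2) and 4.95 ± 0.20 (clone 1) (adjusted p = 3.57e-09 and 1.06e-09). The common gamma chain itself, Il2rg, went down in clone 2, at 0.841 ± 0.227 CPM in clone 2, 3.29 ± 0.367 CPM in clone 1 and 4.14 ± 0.610 CPM in wild-type cells, with log2 fold changes of -2.30 ± 0.20 (clone 2) and -0.33 ± 0.18 (clone 1) (adjusted p = 9.31e-07 and 0.115). Without replicate 1 of every group Il2rg was also called lower in clone 1 (-0.41, adjusted p = 0.0420). In GENCODE M21, 30.5% of the exon bases of Il2rg are shared with the overlapping gene Gm20489 on the same strand. Il2ra, Il7r and Il21r had 0 counts in all libraries.

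Of the ligands of this group, Il7, a survival factor of lymphocytes, appeared in both clones, at 1.77 ± 0.360 CPM in clone 2, 1.65 ± 0.498 CPM in clone 1 and 0.0144 ± 0.0250 CPM in wild-type cells. It was 133-fold (95% counting interval 30.7 to 1859) higher in clone 2 and 123-fold (95% counting interval 28.4 to 1727) higher in clone 1 than the 3 counts of wild-type cells, which were all in replicate 1. Il15, which sustains natural killer cells and memory T cells, averaged 0.0339 ± 0.0150 CPM in clone 2, 1.55 ± 0.223 CPM in clone 1 and 0.756 ± 0.0433 CPM in wild-type cells. It was called in opposite directions, with log2 fold changes of -4.42 ± 0.34 (clone 2) and 1.03 ± 0.21 (clone 1) (adjusted p = 3.12e-07 and 0.000789). Il4 averaged 0.844 ± 0.237 CPM in clone 2, 1.01 ± 0.336 CPM in clone 1 and 0.706 ± 0.352 CPM in wild-type cells and was called in neither clone, but without wild-type replicate 1 it was called higher in clone 1 (0.99 in place of 0.52, adjusted p = 0.0226). Il2 had group means of 0.401 CPM or less and was called in neither clone. Il16, a chemoattractant cytokine cut from a larger precursor, rose in both clones, at 1.96 ± 0.189 CPM in clone 2, 1.92 ± 0.291 CPM in clone 1 and 0.0723 ± 0.0684 CPM in wild-type cells, with log2 fold changes of 4.67 ± 0.43 (clone 2) and 4.64 ± 0.43 (clone 1) (adjusted p = 1.56e-06 and 1.63e-06). Without wild-type replicate 3 these became 5.49 (clone 2) and 5.46 (clone 1). Exons of Stard5 on the opposite strand cover 15.3% of its exon bases. Tnf, an activator of NF-kB, was scarce in wild-type cells and nearly absent in the clones, with 0 counts in clone 2, 2 counts in clone 1 and 43, 83 and 59 counts in the wild-type libraries. That is at least 32.6-fold lower in clone 2 and 87.5-fold lower in clone 1 (95% counting interval 15.3 to 3492).

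Receptors for the chemokines were mostly absent. Of 23 chemokine receptor genes, 4 were tested, all 4 higher in clone 2 and 3 higher in clone 1, beside 37.3% and 37.9% of all genes. Ccr1, the receptor of Ccl9 and Ccl6, averaged 3.32 ± 0.474 CPM in clone 2, 5.13 ± 0.168 CPM in clone 1 and 0.170 ± 0.0336 CPM in wild-type cells, with log2 fold changes of 4.27 ± 0.20 (clone 2) and 4.90 ± 0.20 (clone 1) (adjusted p = 3.51e-09 and 9.17e-10). Of the receptors of Cxcl12, Ackr3, named after its values were seen, stood at 14.6, 12.7 and 14.2 CPM in clone 2, at 22.5, 18.5 and 18.9 CPM in clone 1 and at 6.20, 6.33 and 6.46 CPM in wild-type cells, with log2 fold changes of 1.13 ± 0.10 (clone 2) and 1.66 ± 0.10 (clone 1) (adjusted p = 7.56e-07 and 2.60e-08), and Cxcr4 had 0 counts in both clones. Cxcr2 had 16 counts in clone 2, 0 in clone 1 and 20 in wild-type cells, too few to be tested, and Ccr2 and Ccr6 had 0 counts in all 9 libraries. Of 10 factors that control the decay of cytokine transcripts, 5 were higher and 3 lower in clone 2, and 3 were higher and 3 lower in clone 1, counts near or below the 74.4% and 76.5% of all genes called.

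The clones differed from each other in many members. Clone 2 was higher than clone 1 for 23 and lower for 22 of the 67 tested members, 67.2% of them, against 57.6% of all genes (30.1% higher and 27.5% lower). Of these, 29 differed at least 2-fold (43.3%, against 14.4% of all genes) and 13 at least 4-fold (19.4%, against 6.84%). Here too, a member that passed the filter only through the clone in which it is high had to differ. These shares of large differences are therefore a description. Members higher in clone 2 included Ccl7, Il6, Il33 and Il1a, which differed by log2 values of 2.82 ± 0.22, 2.70 ± 0.28, 3.47 ± 0.15 and 5.20 ± 0.51, and Ccl20 and Il17rd, which clone 1 had nearly lost. Higher in clone 1 were Il17rb, by a log2 value of -7.22 ± 0.28 (clone 2 minus clone 1), and Il15, by -5.45 ± 0.32. The sum of macrophage markers was also higher in clone 2, through Cd68 at 38.6 CPM in clone 2, 9.80 CPM in clone 1 and 10.1 CPM in wild-type cells and Lyz2 at 6.36 CPM in clone 2, 0.279 CPM in clone 1 and 0.0277 CPM in wild-type cells. Adgre1 had at most 1 count in any library, and Mrc1 had 0 counts in clone 2. In 5 members the clones were called in opposite directions against wild-type cells, 7.46% of those tested, against 4.79% of all genes. These were Il15, Il17rb and Il17re, described above, and Il9 and Il22ra1, which were named after their values were seen and had at most 36 counts in a library. The fall of Il9 in clone 2 rests on 4 counts against 15 in wild-type cells, with a 95% counting interval of 0.775 to 38.7 that includes no change. The fall of Il22ra1 in clone 1 rests on 0 counts against 7, close to the floor of 6 counts.

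**Figure D5:**
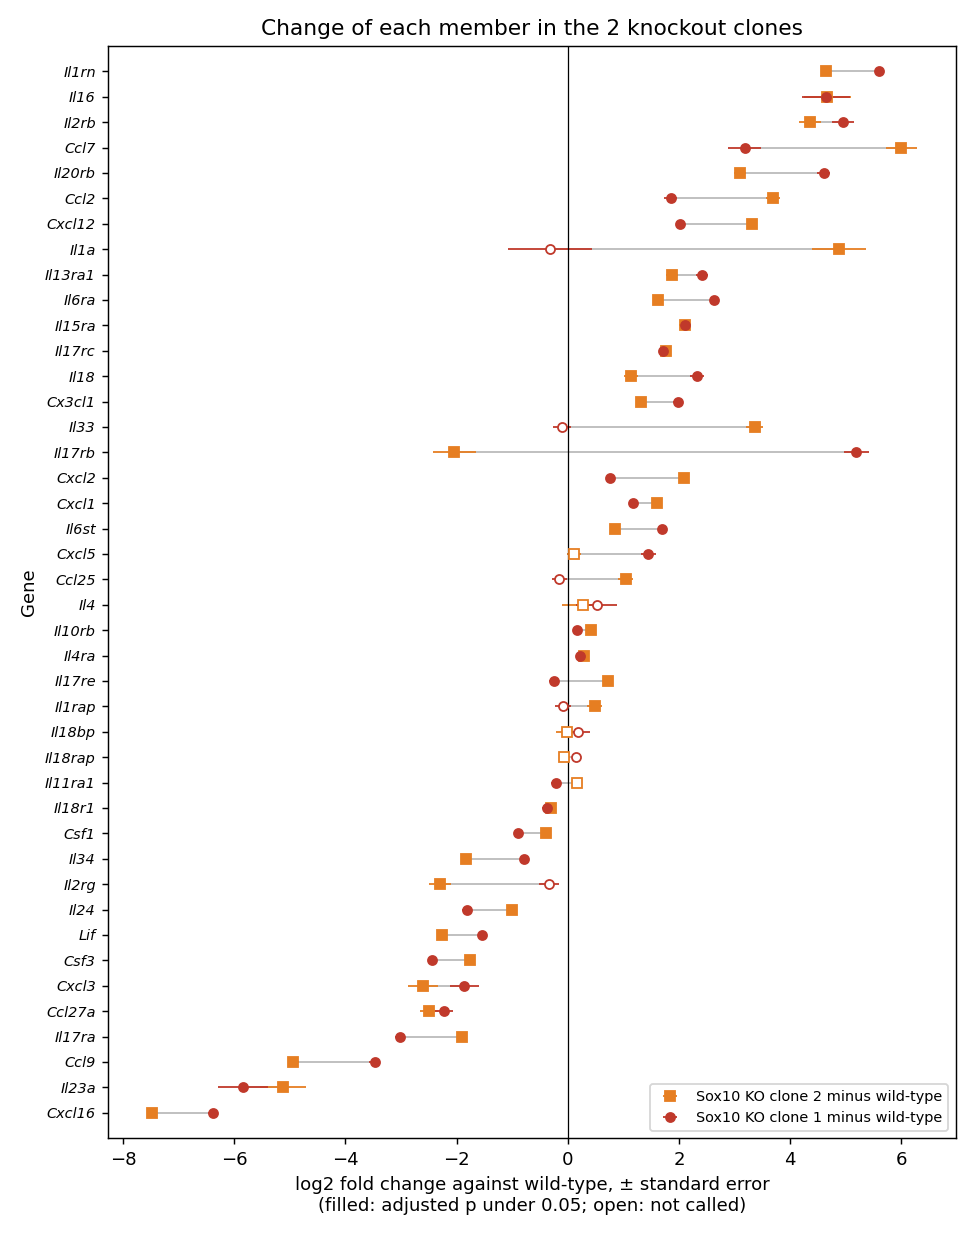
Log2 fold change against wild-type cells (horizontal axis, ± standard error) of the 42 named members with more than 9 counts in every group, for clone 2 and clone 1, ordered by the sum of both values. Filled symbols were called at an adjusted p under 0.05; Il17rb, Il1a and Il33 have the widest gaps between the clones.

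Set per kilobase of exon, the ranking of the members differed between the groups. The length counts every exon of a gene in GENCODE M21, whichever transcripts the cells make. Levels of different genes can thus be compared only roughly, and close ranks cannot be told apart. In clone 2, Cxcl1 led at 167 CPM per kilobase, followed by Ccl2 at 116, Il17rc at 83.5, Csf1 at 82.7 and Il1rn at 64.8. In clone 1, Il1rn at 125 and Cxcl1 at 124 led, followed by Cxcl5 at 98.7, Il17rc at 80.6 and Csf1 at 58.5. In wild-type cells, Csf1 led at 109 CPM per kilobase, followed by Cxcl16 at 73.7, Cxcl1 at 55.1, Csf3 at 52.4 and Lif at 38.7.

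The 61 members that were not tested had at most 20 counts in a library. The 29 with 0 counts throughout included Ccl4, Ccl11, Ccl19, Il12a, Il22 and Il3; for these no level above the floor was detectable at this depth. Among the 32 others, Ccl3 had 23 counts in clone 2, 2 in clone 1 and 0 in wild-type cells, and Il13ra2, a decoy receptor of IL-13, had 0 counts in clone 2, 8 in clone 1 and 29 in wild-type cells. The 4 Ccl21 genes, whose transcripts are near copies of each other, were among those at 0.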

How the data were processed

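Poly(A)-enriched RNA of BG2 cells was sequenced from stranded libraries, 3 for each of 2 Sox10 knockout clones and 3 for the wild-type population. The authors deposited 1 table of raw read counts for 24594 genes by Entrez ID. Per the submitters' processing notes the tools were fastp, Subread and DESeq2 and the build mm10 (GRCm38), with no versions or settings given. Symbols came from RefSeq (GRCm38.p6) for 24570 IDs, and the 24 others held at most 0.202% of a library's counts. Exon lengths and overlaps came from GENCODE M21.

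Counts were tested with edgeR 4.0.16 (R 4.3.3) by its quasi-likelihood test on all 9 libraries as 1 factor of 3 groups, with TMM scaling and filterByExpr at a minimum count of 10. Every adjusted p here and in the results is from this test, by the Benjamini-Hochberg method over 13928 genes, with a threshold of 0.05. Fold changes are followed by ± the standard error, computed from the log2 fold change and its F statistic, and means by ± SD over 3 libraries. The procedure was also run on simulated counts in which a small set of well-counted genes was changed, in clone 1 alone. That run covers neither genes with low counts nor changes in most genes, as called here. Members were given by library where a group mean reached 5 CPM and a call had a log2 size of 1 or more, or where 1 group was at 0 counts and another reached 1 CPM. Other members that reached 1 CPM were given by group means. The members and the gene lists were chosen with earlier results of these data known. Deviations of libraries from their group means correlated in all 9 same-numbered pairs (Pearson's r 0.144 to 0.587, across genes). Pairs of replicate 1 stood apart, at 0.571 to 0.587. Same-numbered pairs of replicates 2 and 3 did not, at 0.144 to 0.358, against 0.078 to 0.393 for replicate 2 with replicate 3. The data thus set only replicate 1 apart, and the labels name no shared batch. A fit with the replicate number as a block was an alternative. Other alternatives were DESeq2 1.42.0, its size factors in edgeR, library totals, other filters, fits of the 2 groups compared, leaving out libraries and, chosen after seeing the data, halved counts.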

Additional observations from a re-analysis of the deposited data

Results flagged for a closer look

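The 14 members below were picked out because the clones differed from each other by the test of that difference and either were called in opposite directions against wild-type cells or differed at least 4-fold. Values are log2 differences, clone 2 minus clone 1, from edgeR's quasi-likelihood test, and their causes were not tested.

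Among chemokines, Ccl7 differed by 2.82 and Cxcl10, with group means of 0.347 CPM or less, by -2.51. Ccl20 differed by a fitted 7.21 that rests on 2 counts in clone 1 and became 9.96 without clone 1 replicate 1; as a ratio it was 174-fold, with a 95% counting interval of 30.9 to 6918. Among interleukins, Il1a differed by 5.20, Il33 by 3.47 and Il6 by 2.70. Il15 differed by -5.45, with a fall in clone 2 and a rise in clone 1. Il1f6, an IL-36 cytokine gene, differed by 3.73 and Il9 by -3.13, both from few counts. Among receptors, Il17rb differed by -7.22, lower in clone 2 and higher in clone 1 than in wild-type cells, and Il17re by 0.97, with the opposite pair of directions. Il17rd differed by a fitted 6.15 that rests on 4 counts in 1 library of clone 1 and ran from 5.55 to 9.78 with single libraries left out. Il27ra differed by 2.70 and Il22ra1, which had 0 counts in clone 1, by a fitted 7.55 that depends on the prior count. Cxcl10, Il1f6, Il9, Il27ra and Il22ra1 were named after their values were seen.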

How the results depend on the processing

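Under 18 alternatives the members called numbered 45 to 62 for clone 2, 42 to 54 for clone 1, 37 to 46 for the same direction in both and 38 to 47 for clone 2 against clone 1. With single libraries left out these were 54 to 58, 47 to 53, 40 to 45 and 41 to 47. With the replicate number as a block they were 57, 53, 44 and 46, and the block added calls for Il11ra1 in clone 2 (0.16, adjusted p = 0.0396) and Il18rap in clone 1 (0.16, adjusted p = 0.0402), changing no other named call. Of 2715 values of 151 differences of named members, 2663 kept direction and side of the threshold, 24 lost and 8 gained a call, and 20 changed sign. None of the 9 differences that changed sign was called in either state. For Il15ra between the clones the log2 difference was 0.01 with library totals, 0.03 without replicate 1 of every group and -0.04 to 0.06 with single libraries left out. Without replicate 1 of every group it was 0.70 for Il1a in clone 1 and -0.13 for Il1rl1 between the clones. With single libraries left out, the ranges were -0.78 to 0.33 for Il1a and -0.20 to 0.03 for Il1rap in clone 1, -0.05 to 0.20 for Cxcl5 and -0.25 to 0.15 for Il18bp in clone 2, and -0.15 to 0.16 for Il1rl1, -0.04 to 0.16 for Il16, -0.45 to 0.03 for Il4 and -0.13 to 0.24 for Il7 between the clones. The cause was not tested. Low counts, with 16 tested members under 1 CPM in every group, limit the precision of the smallest levels, and technical replicates of single clones limit the spread that the tests can see.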
